A study of Homo sapiens with 12 samples.

Results

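The genes described here are 31 members of the p53 pathway, most of them known transcriptional targets of p53, followed across 4 groups of cultured ovarian cancer cells. Each gene was represented by its probe set (a set of short probes against a single transcript region) with the highest mean over all 12 arrays, among probe sets annotated to a single gene symbol. Of the 31 listed genes, 28 were measured in this way, out of 19775 genes in all. BBC3, BTG2 and FDXR were not analysed here.

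The study asked how RNA levels change when CXCR4, a receptor whose chemokine ligand is CXCL12, is stably knocked down. It used IGROV-1, a long-established line grown from a human ovarian carcinoma, and Affymetrix U133 Plus 2.0 arrays. The 4 groups hold 3 arrays each. Line I (shCXCR4 I) and line II (shCXCR4 II) carry plasmids with different short hairpin RNAs (shRNAs) against CXCR4, and both come from individual clones. Mock cells carry a control plasmid with a scrambled RNA and are a pool of clones. Line I, line II and Mock received their plasmids by lipid transfection and were kept in 4 µg/ml puromycin for 30 days from 48 hours on, whereas Parental cells are the untransfected line. Knockdown and origin from a clone therefore change together in each comparison of a line with Mock and cannot be told apart. The labels do not say whether the 3 arrays of a group came from separate cultures, so each p-value rests on nothing but the spread among these arrays, and that spread may be technical.

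The transcription factor p53 is stabilised when DNA is damaged or the cell is otherwise stressed, and it then raises the transcription of genes that stop the cell cycle, repair DNA or start cell death. It also raises its own inhibitors, among them MDM2, which marks p53 for degradation, so that the pathway limits itself. In ovarian carcinoma this pathway is among the most often altered, and many anticancer drugs act in part through it.

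In DNA, p53 binds a pair of adjacent copies of a 10-letter consensus element, 20 letters in all when no spacer lies between them. Promoter windows from RefSeq (GRCh38.p14), running from 250 bases before to 50 bases after a listed transcription start, were found for 22 of the 28 measured members in 32 windows. They were searched for the p53 consensus element, which reads the same on both strands, so that each search covers both. In every copy the fixed C and G of the element had to match, so letters off the consensus could lie only elsewhere. With at most 2 letters off the consensus, the 20-letter site was found for 4 members, MDM2, FAS, DDB2 and AEN. That was 18.2% of the members in the table, against 0.359% of its 27305 genes. The limit of 2 was chosen after the matches had been seen. With at most 1 letter off, the share was 4.55% of members (DDB2) against 0.0696% of genes, and with at most 3 it was 36.4% against 1.37%. A single 10-letter element without any mismatch was found for 27.3% of members and 8.06% of genes. Because the members are listed as p53 targets, these shares describe the list and not a response in these cells.

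The windows below are those of the 4 members with a 20-letter site, shown because these genes did not move together across the 4 groups, and of PLK2, which fell in line II and has a perfect 10-letter element. SESN1 and RPS27L, not shown, also have a perfect element without such a site, and passed in no comparison on the probe sets used. Whether the PLK2 element has to do with its fall was not tested. Each printed window reads 5′ to 3′ on the gene's strand, with the whole site or element in capitals, including letters off the consensus. The FAS stretch lies at chr10:88991181-88991430 on the plus strand, and its site begins 122 bases before the start. The MDM2 stretch lies at chr12:68808767-68809016 on the plus strand, with the site 94 bases before the start. The DDB2 stretch lies at chr11:47214724-47214988 on the plus strand, and its site begins 5 bases before the start and runs across it. The AEN stretch lies at chr15:88621090-88621339 on the plus strand, with the site 34 bases before the start. The PLK2 stretch lies at chr5:58460087-58460336 on the minus strand, with the element 132 bases before the start. FAS has 3 windows in the table, MDM2 has 4 and DDB2 has 2, and the site was taken from the best match among them.
FAS: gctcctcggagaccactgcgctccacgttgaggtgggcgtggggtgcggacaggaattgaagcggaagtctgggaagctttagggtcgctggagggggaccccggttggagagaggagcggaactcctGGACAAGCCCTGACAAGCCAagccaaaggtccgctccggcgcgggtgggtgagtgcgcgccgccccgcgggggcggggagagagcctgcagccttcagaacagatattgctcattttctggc
MDM2: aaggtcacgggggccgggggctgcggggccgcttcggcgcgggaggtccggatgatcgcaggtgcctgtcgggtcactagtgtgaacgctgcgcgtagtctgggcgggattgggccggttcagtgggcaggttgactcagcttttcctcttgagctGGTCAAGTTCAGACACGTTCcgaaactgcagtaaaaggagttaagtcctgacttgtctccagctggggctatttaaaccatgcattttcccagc
DDB2: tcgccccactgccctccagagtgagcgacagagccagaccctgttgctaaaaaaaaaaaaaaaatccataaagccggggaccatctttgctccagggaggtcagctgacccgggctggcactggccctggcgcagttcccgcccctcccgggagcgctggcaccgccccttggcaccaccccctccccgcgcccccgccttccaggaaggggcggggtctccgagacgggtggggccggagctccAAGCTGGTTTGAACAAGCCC
AEN: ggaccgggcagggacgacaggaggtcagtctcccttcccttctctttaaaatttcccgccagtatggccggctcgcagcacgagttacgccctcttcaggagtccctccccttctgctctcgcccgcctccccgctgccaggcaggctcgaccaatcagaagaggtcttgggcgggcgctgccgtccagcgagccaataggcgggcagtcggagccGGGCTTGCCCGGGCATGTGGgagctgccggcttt
PLK2: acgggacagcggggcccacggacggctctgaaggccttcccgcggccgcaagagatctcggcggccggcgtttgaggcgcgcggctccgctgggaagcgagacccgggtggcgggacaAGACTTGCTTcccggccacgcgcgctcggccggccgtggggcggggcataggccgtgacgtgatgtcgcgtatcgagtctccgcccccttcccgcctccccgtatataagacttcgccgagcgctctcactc

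The targeted gene was lower in both lines. CXCR4 averaged 7.09 in line I and 6.62 in line II, against 8.58 in Mock and 8.33 in Parental, all as log2 values. The difference from Mock was -1.49 for line I and -1.96 for line II (limma adjusted p = 6.11e-08 and 4.38e-09), which left 35.6% and 25.7% of the Mock level. Array medians lay between 4.25 and 4.39, and Mock arrays had wider interquartile ranges (3.38 to 3.43) than the others (3.19 to 3.31). Of 8 epithelial and ovarian markers, 7 had a group mean above 6 in every group, all but MUC16. None of the 3 leukocyte markers reached 6 in any group, COL1A1 was the fibroblast marker above 6 and PECAM1 the endothelial one, with a highest group mean of 6.69. A lower value in a culture can come from fewer cells with the transcript or from less of it per cell, and these cannot be told apart.

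Most of the measured members that differed between a line and Mock were lower in the line, and the differences were small. Against Mock, 13 of 28 members passed the test in line I, 4 of them higher and 9 lower, while 23.6% of all genes passed it. In line II, 12 members passed, 1 higher and 11 lower, while 26.1% of all genes passed. The arrays did not overlap between line I and Mock for 19 members and for 41.6% of all genes, nor between line II and Mock for 16 members and 36.4% of all genes. A gene passed at a Benjamini-Hochberg adjusted p under 0.05 from limma's test over all 19775 genes. On the probe sets used, no member differed 2-fold in any of the 6 comparisons, while 1 other probe set, of SPATA18, did so in both lines against Mock. The median difference from Mock was -0.08 over the members and 0.02 over all genes in line I, and -0.17 and 0.02 in line II, on the log2 scale. Of all genes, 9.97% were higher and 13.6% lower in line I than in Mock, and 11.0% were higher and 15.1% lower in line II. A mean log2 of at least 6 over the 12 arrays was reached by 25 of the 28 members but by 42.2% of all genes. In a fit limited to those 8348 genes, 4090 passed in line I, 1152 higher and 2938 lower. The members there were 4 higher and 11 lower. In line II 3948 passed, 897 higher and 3051 lower, with members 2 higher and 13 lower. The all-gene shares against Mock also stand beside the counts of the role groups below. The splits moved with the scaling of the arrays. After quantile normalization of the arrays, 5 members were higher and 7 lower in line I, and 2 higher and 6 lower in line II. Over all genes, 2117 were then higher and 1827 lower in line I, and 2255 higher and 1872 lower in line II. After centring each array on its median, 3 members were higher and 13 lower in line I, and 1 higher and 17 lower in line II. Over all genes, 1153 were then higher and 3684 lower in line I, and 1150 higher and 4259 lower in line II.

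**Figure D1:**
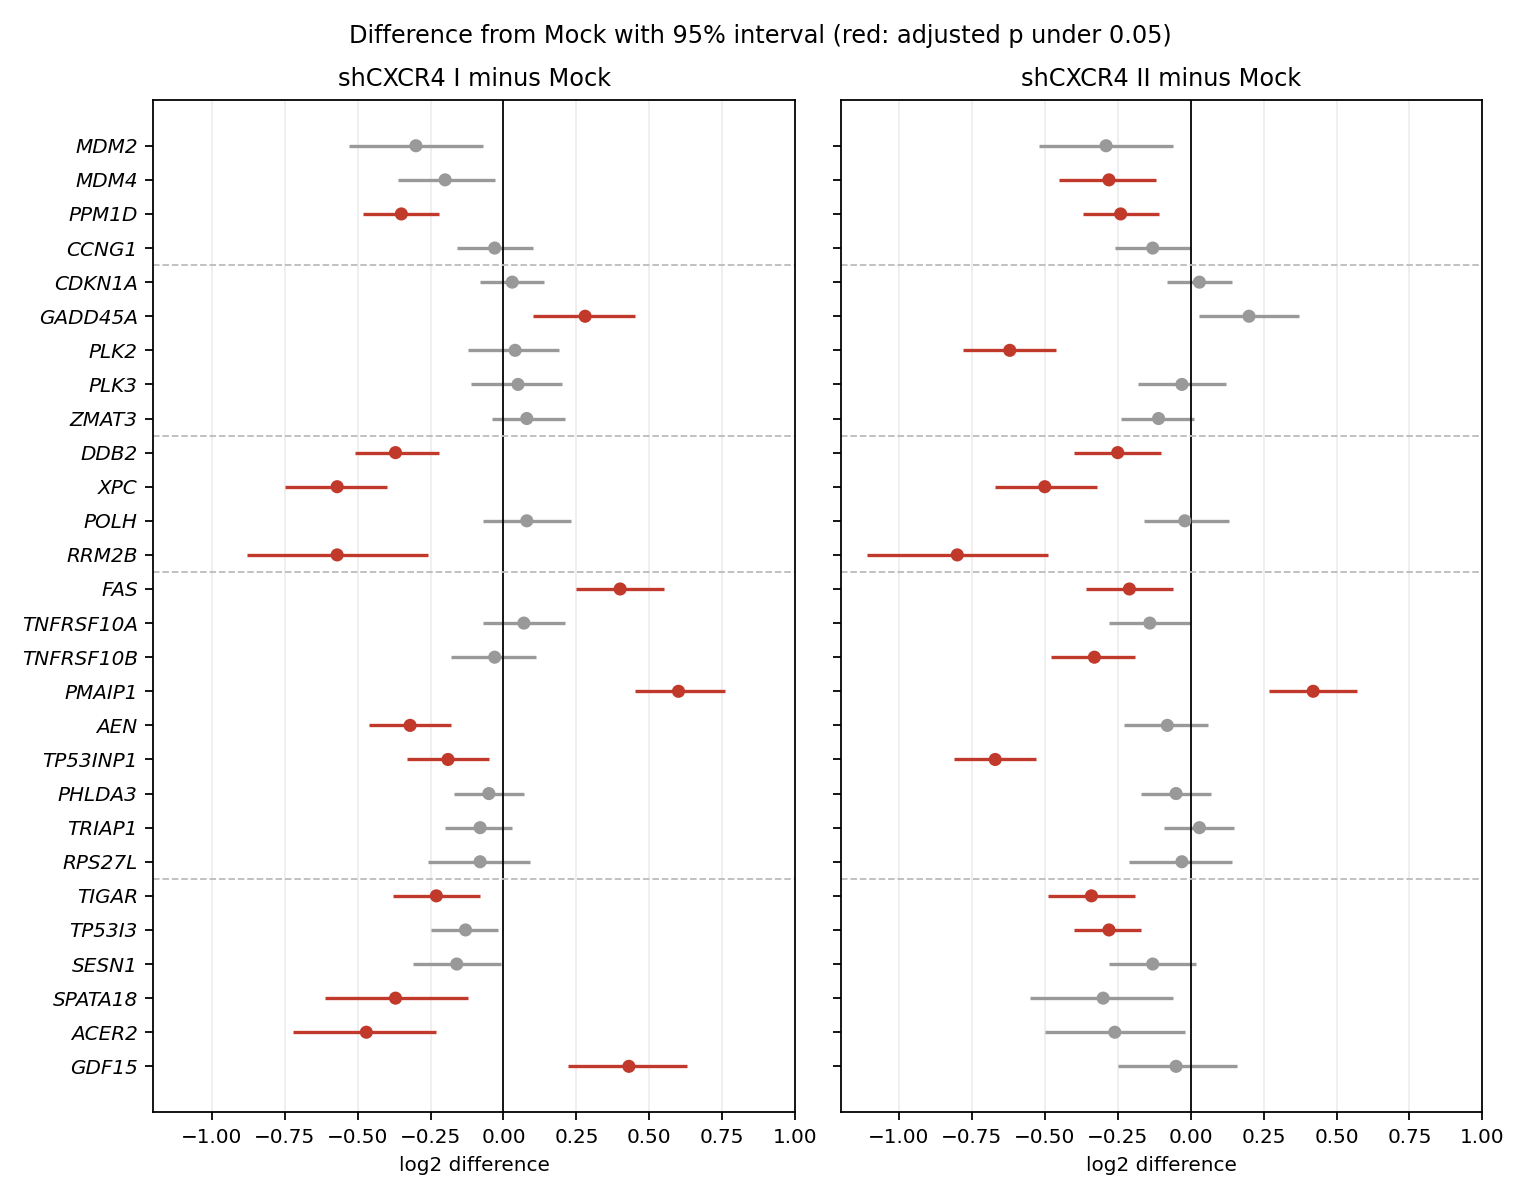
Log2 difference from Mock for the 28 measured p53 pathway genes, in line I (left) and line II (right), with 95% intervals from limma; the dashed lines separate groups of genes by role, and red marks an adjusted p under 0.05. In line I 4 genes lie right of 0 in red and 9 left of it, and in line II 1 and 11.

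The 2 lines were compared with the same 3 Mock arrays, so a deviation of those arrays enters both comparisons. PMAIP1 was the single member higher in both lines, a pattern that 5.59% of all genes showed. TP53INP1, RRM2B, DDB2, XPC, TIGAR and PPM1D were lower in both, a pattern of 9.2% of all genes. FAS passed in opposite directions, higher in line I and lower in line II, which 0.187% of all genes did. Against both controls, TP53INP1, RRM2B, XPC and PPM1D were lower in both lines, as were 3.1% of all genes. With probe sets averaged, TP53INP1 did not pass against Mock in either line nor against Parental in line I, and PPM1D did not pass in line II against Mock. The line II calls against Mock were lost in 10 of the alternative settings for FAS and in 4 each for DDB2 and PPM1D. The line I calls against Mock were lost in 5 for TIGAR and in 14 for TP53INP1.

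Among the genes that restrain p53, PPM1D was lower in both lines than in both controls, whereas MDM2 was lower in the lines than in Parental and missed the threshold against Mock. This group holds MDM2, MDM4, PPM1D and CCNG1. Of these 4, none was higher and 1 was lower in line I against Mock, and none was higher and 2 were lower in line II. After quantile normalization none of the 4 passed in line II, and after centring 3 were lower in line I and 4 in line II.

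MDM2 encodes the ubiquitin ligase that marks p53 for degradation. Its log2 values were 7.91, 8.03 and 7.97 in line I and 7.80, 7.87 and 8.27 in line II, against 8.17, 8.37 and 8.27 in Mock and 8.44, 8.60 and 8.43 in Parental. Every array of line I lay below every Mock array, while array 3 of line II stood apart from the other two and fell within the Mock range. All arrays of both lines lay below all Parental arrays. The difference from Parental was -0.51 ± 0.11 (SE) for line I and -0.51 ± 0.11 for line II, with limma adjusted p = 0.00399 and 0.00485. Against Mock it was -0.30 for line I and -0.29 for line II (adjusted p = 0.0584 and 0.0588). Without array 3 of line II these were -0.30 and -0.44 (adjusted p = 0.00924 and 0.00194). MDM2 has 10 probe sets that did not all move alike: without the probe sets marked as able to bind several transcripts (_x_at and _s_at), the differences from Parental were -0.09 and -0.22 (adjusted p = 0.563 and 0.107). Those values came from a probe set with a mean of 4.95 over the 12 arrays, against 8.18 for the one used.

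PPM1D encodes the phosphatase WIP1, which removes activating phosphates from p53 and from the kinases upstream of it. It measured 7.52, 7.51 and 7.46 in line I and 7.53, 7.66 and 7.65 in line II, against 7.85, 7.93 and 7.77 in Mock and 8.05, 8.08 and 8.12 in Parental. The lines were lowest, Mock lay between and Parental was highest, with no overlap between a line and either control or between Mock and Parental. Relative to Mock, the difference was -0.35 ± 0.06 (SE) for line I and -0.24 ± 0.06 for line II, with limma adjusted p = 0.00109 and 0.0129. Against Parental it was -0.58 and -0.47 (adjusted p = 2e-05 and 0.000142). Mock was itself below Parental by a difference of -0.23 (adjusted p = 0.0212). For line II the call against Mock was lost after quantile normalization, at -0.11 (adjusted p = 0.20), with probe sets averaged, at -0.14 (adjusted p = 0.112), and without array 2 of Mock, at -0.20 (adjusted p = 0.0552). A fit restricted to the groups compared lost it as well (adjusted p = 0.0697). The call of Mock against Parental was lost without array 2 or 3 of Parental or array 3 of Mock (adjusted p = 0.0619, 0.0809 and 0.0858), with probe sets averaged, at -0.13 (adjusted p = 0.199), and after centring, at -0.19 (adjusted p = 0.0859).

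MDM4, a relative of MDM2 that blocks the activating domain of p53, gave 7.89, 8.04 and 7.90 in line I and 7.88, 7.73 and 7.96 in line II. The Mock arrays gave 8.15, 8.07 and 8.19 and the Parental arrays 7.80, 7.98 and 7.94. Mock was the group that stood apart, above all arrays of the 3 other groups. MDM4 differed from Mock by -0.20 in line I (adjusted p = 0.0793) and by -0.28 ± 0.08 (SE) in line II (limma adjusted p = 0.0154). From Parental it differed by 0.03 for line I and -0.05 for line II. The call in line II was lost when the 6 probe sets of the gene were averaged, at -0.02 (adjusted p = 0.842), after quantile normalization, at -0.15 (adjusted p = 0.133), and without array 2 of line II or array 3 of Mock (adjusted p = 0.0702 and 0.0539). CCNG1, a cyclin that recruits a phosphatase to MDM2, did not pass against Mock, with differences of -0.03 in line I and -0.13 in line II. Line II minus Parental was -0.20 for CCNG1 (adjusted p = 0.0349), a call lost in 8 of the alternative settings.

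**Figure D2:**
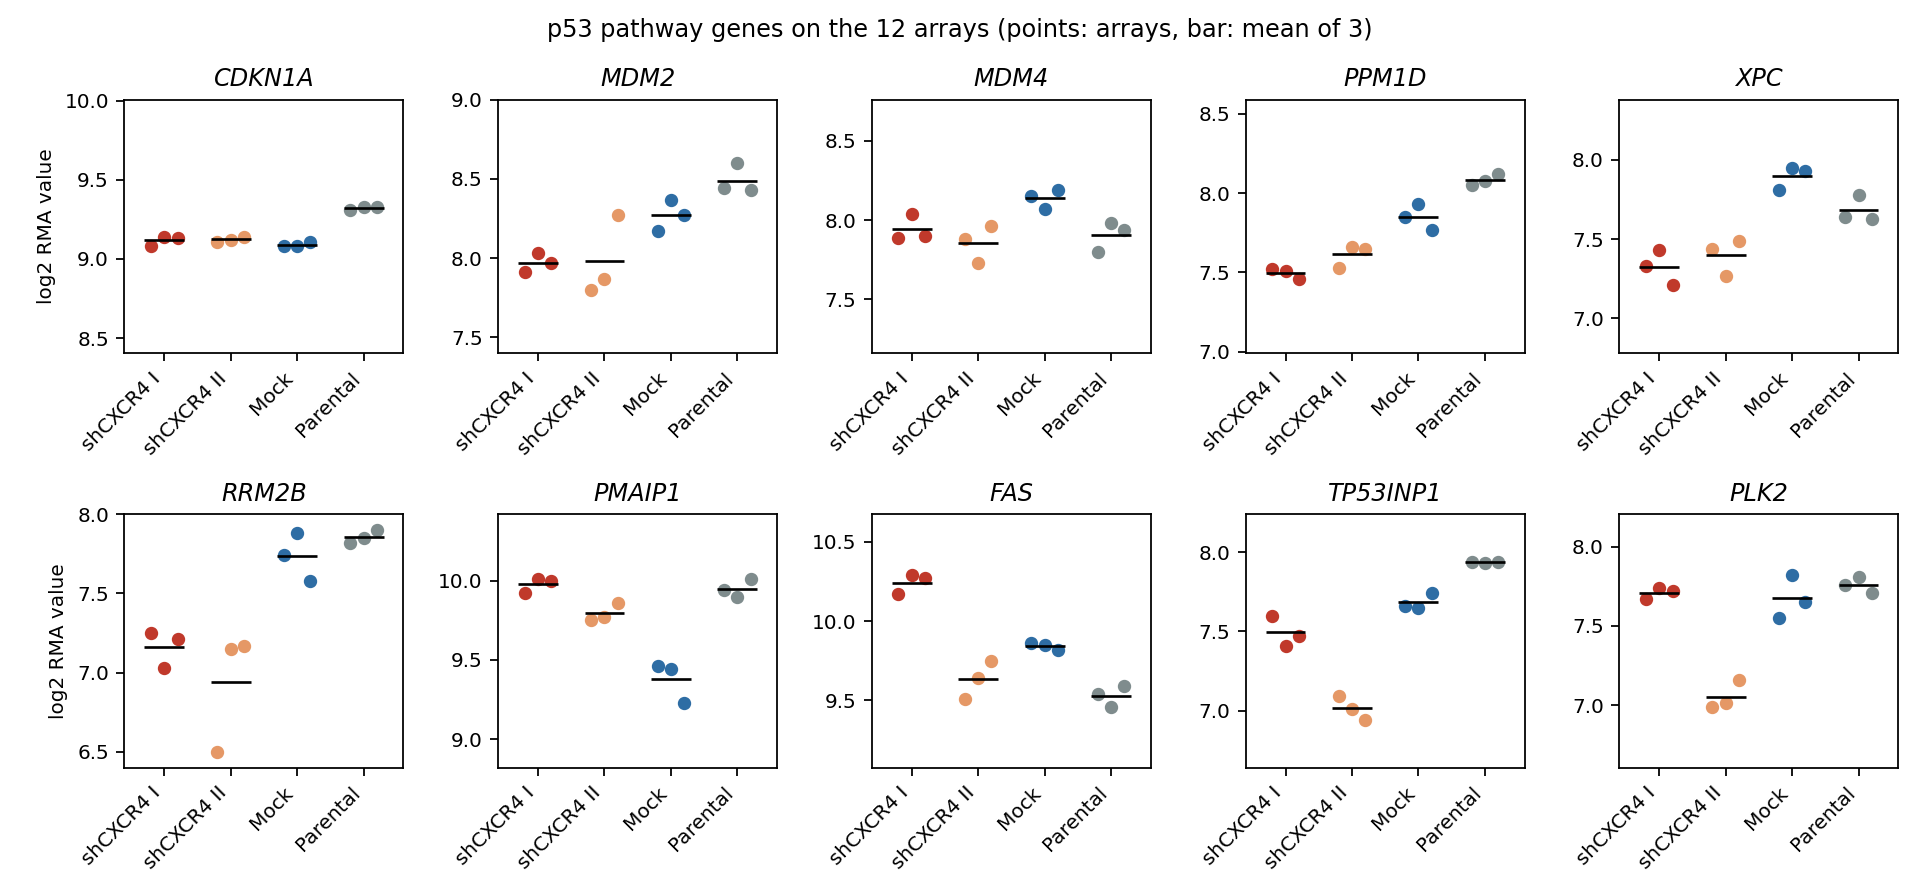
Log2 expression value (vertical axis, RMA scale, each panel with its own range) of 10 p53 pathway genes on each of the 12 arrays, by group; points are arrays and bars are means of 3. PMAIP1 is lowest in Mock, FAS is highest in line I, PLK2 and TP53INP1 are lowest in line II, and RRM2B, XPC and PPM1D are lower in both lines than in both controls.

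CDKN1A, the canonical arrest gene of the pathway, did not differ detectably between either line and Mock, while the stress kinase gene PLK2 was lower in line II than in all other groups. The arrest and stress group holds CDKN1A, GADD45A, PLK2, PLK3 and ZMAT3. Of these 5, 1 rose and none fell in line I against Mock, and none rose and 1 fell in line II.

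CDKN1A encodes p21, the inhibitor of cyclin-dependent kinases through which p53 stops the cell cycle. Its values were 9.08, 9.14 and 9.13 in line I and 9.11, 9.12 and 9.14 in line II, against 9.08, 9.08 and 9.11 in Mock and 9.31, 9.33 and 9.33 in Parental. The 3 transfected groups overlapped each other, and Parental lay above all of them. The difference from Mock was 0.03 in each line, with 95% intervals from -0.08 to 0.14. Against Parental it was -0.21 ± 0.05 (SE) in line I, -0.20 ± 0.05 in line II and -0.24 ± 0.05 in Mock, with limma adjusted p = 0.012, 0.0146 and 0.0065. Parental cells were the group set apart in CDKN1A, with Mock at 84.9% of their level. The call for line I was lost without array 1 of line I (adjusted p = 0.0534), and that for line II without array 2 or 3 of Parental (adjusted p = 0.0535 and 0.0534) and after quantile normalization, at -0.14 (adjusted p = 0.0732). A fit restricted to the groups compared also lost the line II call (adjusted p = 0.0605).

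PLK2 encodes a kinase of the polo family induced by stress. It measured 7.67, 7.74 and 7.72 in line I and 6.99, 7.01 and 7.16 in line II, against 7.55, 7.82 and 7.65 in Mock and 7.76, 7.81 and 7.71 in Parental. Line II stood apart from all others, which overlapped. Relative to Mock, the difference was -0.62 ± 0.07 (SE) in line II (limma adjusted p = 5.45e-05) and 0.04 ± 0.07 in line I (adjusted p = 0.771). From Parental it differed by -0.71 in line II (adjusted p = 1.73e-05), and line I minus line II was 0.66 ± 0.07 (adjusted p = 0.000111).

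GADD45A, a DNA damage protein that binds the cell cycle kinase CDK1, was higher in line I than in Mock by 0.28 ± 0.08 (SE, limma adjusted p = 0.0242), and its difference in line II was 0.20 (adjusted p = 0.0845). The call in line I was lost after centring the arrays, at 0.21 (adjusted p = 0.109), and when array 2 or 3 of line I or array 1 or 3 of Mock was left out (adjusted p = 0.0996, 0.0527, 0.0719 and 0.0623). ZMAT3, an RNA-binding zinc finger protein, did not pass in either line against Mock on the probe set used, and another gave -0.27 in line II (adjusted p = 0.0294). It was lower in line II than in Parental by a difference of -0.30 ± 0.06 (SE, adjusted p = 0.00302). Mock minus Parental was -0.19 (adjusted p = 0.0477), a call lost in 14 of the alternative settings. PLK3, a further stress kinase of the polo family, stayed between -0.03 and 0.11 in the 6 comparisons and passed in none.

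The repair genes formed the group with the lowest median against Mock in both lines. XPC, DDB2 and RRM2B fell in each line and POLH did not pass in either, so that 3 of 4 were lower in line I and 3 of 4 in line II. The median of the 4 was -0.47 for line I and -0.37 for line II. After quantile normalization 3 fell in line I and 2 in line II, and DDB2 lost its call in line II, at -0.12 (adjusted p = 0.181).

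XPC encodes the damage sensor of nucleotide excision repair. Its values were 7.33, 7.43 and 7.21 in line I and 7.44, 7.27 and 7.49 in line II, against 7.81, 7.95 and 7.93 in Mock and 7.64, 7.78 and 7.63 in Parental. Both lines lay below both controls on every array. Its difference from Mock was -0.57 ± 0.08 (SE) for line I and -0.50 ± 0.08 for line II, with limma adjusted p = 0.000182 and 0.000664, or 67.2% and 70.9% of the Mock level. Against Parental it was -0.36 for line I and -0.28 for line II (adjusted p = 0.00656 and 0.0272). For line II this call was lost after quantile normalization, at -0.21 (adjusted p = 0.054), and without array 2 of line II or array 2 of Parental (adjusted p = 0.115 and 0.12). It was also lost in a fit restricted to the groups compared (adjusted p = 0.0567).

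RRM2B encodes p53R2, a subunit of ribonucleotide reductase that supplies nucleotides for repair. It measured 7.25, 7.03 and 7.21 in line I and 6.50, 7.15 and 7.17 in line II, against 7.74, 7.88 and 7.58 in Mock and 7.82, 7.85 and 7.90 in Parental. All arrays of both lines lay below all arrays of both controls, and array 1 of line II was far below the other arrays of that line. The difference from Mock was -0.57 ± 0.14 (SE) for line I and -0.80 ± 0.14 for line II, with limma adjusted p = 0.0112 and 0.0015. Without array 1 of line II its difference from Mock was -0.58 (adjusted p = 0.000986). From Parental it differed by -0.69 for line I and -0.92 for line II (adjusted p = 0.00416 and 0.000609), or 1.62-fold and 1.89-fold lower.

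DDB2, which recognises ultraviolet damage in chromatin and whose promoter holds the closest match printed above, averaged 8.01 ± 0.04 (SD, n = 3) in line I and 8.12 ± 0.09 in line II, against 8.37 ± 0.11 in Mock and 8.26 ± 0.03 in Parental. Relative to Mock, the difference was -0.37 ± 0.07 (SE) for line I and -0.25 ± 0.07 for line II, with limma adjusted p = 0.00192 and 0.0178. Against Parental it was -0.25 in line I (adjusted p = 0.0235) and -0.14 in line II (adjusted p = 0.21). In a fit restricted to the groups compared, line II did not pass against Mock (adjusted p = 0.0774). That call was also lost without array 1 of line II or array 2 of Mock (adjusted p = 0.0678 and 0.0772). That of line I against Parental was lost without array 2 or 3 of line I or array 1 or 2 of Parental, with adjusted p from 0.0634 to 0.0845. POLH, a polymerase that copies past ultraviolet lesions, had group means under 6 in all groups and passed in none of the comparisons on the probe set used. Its 6 probe sets disagreed. In limma's test over all single-symbol probe sets, one gave -0.29 for line I and -0.31 for line II against Mock (adjusted p = 0.0381 and 0.026), and another gave -0.28 and -0.37 against Parental (adjusted p = 0.013 and 0.0021). With the POLH probe sets averaged, the differences from Parental were -0.22 in each line (adjusted p = 0.0278 and 0.0269).

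The death receptors and apoptosis genes did not move as a group. Of 9 members, 2 were higher and 2 lower in line I against Mock, and 1 was higher and 3 lower in line II. PMAIP1 was higher in both lines, FAS went opposite ways, and TP53INP1 was lower in both.

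PMAIP1 encodes NOXA, a BH3-only protein that neutralises the survival factor MCL1. Its values were 9.92, 10.01 and 10.00 in line I and 9.75, 9.77 and 9.86 in line II, against 9.46, 9.44 and 9.23 in Mock and 9.94, 9.90 and 10.01 in Parental. Mock lay below the other 3 groups on every array, line I overlapped Parental, and line II lay just below Parental. Its difference from Mock was 0.60 ± 0.07 (SE) for line I and 0.42 ± 0.07 for line II, with limma adjusted p = 4.09e-05 and 0.000909. Mock minus Parental was -0.57 ± 0.07 (adjusted p = 9.86e-05). Against Parental the lines did not pass, at 0.03 in line I and -0.16 in line II (adjusted p = 0.828 and 0.155). The second probe set of PMAIP1 gave 0.60, 0.45 and -0.68 for line I and line II against Mock and for Mock against Parental.

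FAS encodes a death receptor of the cell surface. It measured 10.17, 10.29 and 10.27 in line I and 9.51, 9.64 and 9.75 in line II, against 9.86, 9.85 and 9.82 in Mock and 9.54, 9.46 and 9.59 in Parental. Line I was above every other array, Mock came next, and line II overlapped Parental. The difference from Mock was 0.40 ± 0.07 (SE) in line I (limma adjusted p = 0.00104) and -0.21 ± 0.07 in line II (adjusted p = 0.0382). Line I minus Parental was 0.71 (adjusted p = 9.51e-06) and line I minus line II was 0.61 (adjusted p = 0.000125). The call in line II was lost in 10 of the alternative settings, among them quantile normalization, at -0.10 (adjusted p = 0.26), and the loss of any array of Mock (adjusted p = 0.0857, 0.0887 and 0.0647). The call in line I was lost without _x_at and _s_at probe sets, at 0.29 (adjusted p = 0.0951). That value came from a probe set with a mean of 4.38 over the 12 arrays, against 9.81 for the one used. The 4 other probe sets of FAS gave the same signs against Mock, positive in line I and negative in line II.

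The other death receptors of the list, TNFRSF10A and TNFRSF10B, bind the ligand TRAIL. TNFRSF10B was lower in line II than in Mock, at -0.33 ± 0.07 (SE, limma adjusted p = 0.0033), and its difference in line I was -0.03. With the probe sets of TNFRSF10B averaged, the line II call was lost, at -0.12 (adjusted p = 0.126). TNFRSF10A passed in neither line against Mock, and its difference between line II and Parental was -0.24 (adjusted p = 0.0193). This call was lost without array 1 or 2 of line II or array 3 of Parental (adjusted p = 0.0687, 0.067 and 0.0903). It was also lost after quantile normalization, at -0.17 (adjusted p = 0.0525), and in a fit restricted to the groups compared (adjusted p = 0.075).

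TP53INP1 encodes a nuclear protein that promotes p53-dependent death and autophagy. Its values were 7.60, 7.41 and 7.47 in line I and 7.09, 7.01 and 6.94 in line II, against 7.66, 7.65 and 7.74 in Mock and 7.94, 7.93 and 7.94 in Parental. The 4 groups did not overlap, with line II lowest, then line I, Mock and Parental. Relative to Mock, the difference was -0.19 ± 0.06 (SE) for line I and -0.67 ± 0.06 for line II, with limma adjusted p = 0.0478 and 8.3e-06. From Parental it differed by -0.44 for line I and -0.92 for line II (adjusted p = 0.000287 and 4.15e-07), and Mock minus Parental was -0.25 (adjusted p = 0.0172). The call of line I against Mock lay near the threshold and was lost in 14 of the alternative settings, while that of Mock against Parental was lost without any array of Parental or without array 2 of Mock (adjusted p from 0.0514 to 0.061). Averaging the probe sets also lost the call of Mock against Parental, at -0.17 (adjusted p = 0.0605). The probe sets of this gene disagreed, with means of 7.53 for the one used and 5.18 for a second one. The second was higher than Mock by 0.31 in line I and by 0.36 in line II. In limma's test over all single-symbol probe sets its adjusted p was 0.0176 and 0.00789. With the 3 probe sets averaged, the differences from Mock were 0.13 in line I and -0.03 in line II (adjusted p = 0.122 and 0.685), and those from Parental were -0.04 and -0.21 (adjusted p = 0.681 and 0.0255).

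AEN, a nuclease that cuts DNA and RNA in dying cells and has the site printed above, was lower in line I than in Mock by a difference of -0.32 ± 0.07 (SE, limma adjusted p = 0.00339) and than in Parental, also at -0.32 (adjusted p = 0.00412). In line II both differences were -0.08. PHLDA3, a repressor of AKT, TRIAP1, a mitochondrial survival factor, and the ribosomal protein relative RPS27L passed in none of the 6 comparisons. Their differences ran from -0.20 to 0.08.

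Among the metabolic, antioxidant and secreted products, GDF15 rose in line I against Mock and did not pass in line II. Of 6 members, 1 was higher and 3 lower in line I against Mock, and none was higher and 2 were lower in line II. After quantile normalization 2 were lower in line I and 1 in line II, and after centring 5 and 4. GDF15, a secreted cytokine of the TGF-beta family that marks cell stress, averaged 9.22 ± 0.03 (SD, n = 3) in line I and 8.74 ± 0.22 in line II, against 8.79 ± 0.11 in Mock and 8.81 ± 0.06 in Parental. Its difference from Mock was 0.43 ± 0.10 (SE) in line I (limma adjusted p = 0.00544) and -0.05 ± 0.10 in line II (adjusted p = 0.754), and line I minus line II was 0.48 (adjusted p = 0.00852). The probe set used is an _x_at one. Without such probe sets, line II minus Mock was 0.38 (adjusted p = 0.0147) and line I minus line II was 0.02 (adjusted p = 0.942). Those values came from a probe set with a mean of 3.43 over the 12 arrays, against 8.89 for the one used. Low signal limits what they show.

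TIGAR, a phosphatase that slows glycolysis, was lower in both lines than in Mock, at -0.23 ± 0.07 (SE) in line I and -0.34 ± 0.07 in line II, with limma adjusted p = 0.0305 and 0.00337. The call in line I was lost after quantile normalization, at -0.14 (adjusted p = 0.162), and without array 1 or 2 of line I or array 2 of Mock (adjusted p = 0.108, 0.0889 and 0.128). A fit restricted to the groups compared also lost it (adjusted p = 0.058). Against Parental the TIGAR differences were -0.04 in line I and -0.16 in line II, and neither passed. TP53I3, a quinone oxidoreductase, was lower in line II than in Mock, at -0.28 ± 0.05 (SE, adjusted p = 0.00238), but higher in line I than in Parental by 0.22 (adjusted p = 0.0146). The first call was lost after quantile normalization, at -0.15 (adjusted p = 0.0768), and the other without array 1 or 2 of line I or array 3 of Parental (adjusted p = 0.0679, 0.0603 and 0.064). Centring the arrays also lost the call of line I against Parental, at 0.19 (adjusted p = 0.0537). Mock was higher than Parental for this gene by 0.35 ± 0.05 (SE, adjusted p = 0.000735).

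SPATA18, involved in the quality control of mitochondria, and ACER2, an alkaline ceramidase, had group means under 6 in all groups. On the probe sets used, they were lower in line I than in Mock by differences of -0.37 and -0.47 (limma adjusted p = 0.0308 and 0.00789). The SPATA18 call was lost without array 1 or 3 of line I or array 2 of Mock (adjusted p = 0.052, 0.129 and 0.134). A second SPATA18 probe set, singled out after its values were seen, gave 4.76, 4.84 and 4.78 in line I and 4.41, 4.43 and 4.79 in line II, against 5.85, 5.86 and 5.87 in Mock and 5.03, 4.90 and 5.07 in Parental. Mock stood above every array of the other groups. In limma's test over all single-symbol probe sets, the difference from Mock was -1.07 for line I and -1.32 for line II (adjusted p = 3.17e-06 and 3.88e-07), or 2.1-fold and 2.49-fold lower. Mock minus Parental was 0.86 (adjusted p = 3.17e-05), line I minus Parental -0.21 (adjusted p = 0.18) and line II minus Parental -0.46 (adjusted p = 0.00445). With both SPATA18 probe sets averaged, the differences from Mock were -0.72 and -0.81 (adjusted p = 6.66e-06 and 2.42e-06).

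SESN1, a sestrin that restrains growth signalling under stress, passed in none of the comparisons, with differences from -0.16 to 0.02.

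Against untransfected Parental cells, the members that passed in line II were all lower, and those in line I were mostly so. In line I 11 members passed, 3 higher and 8 lower, while 16.8% of all genes passed. In line II 10 passed, none higher and 10 lower, while 17.0% of all genes passed. Line I and Parental arrays did not overlap for 19 members and 38.7% of all genes, and line II and Parental arrays for 19 members and 32.8% of all genes. Of all genes, 8.25% were higher and 8.56% lower in line I than in Parental, and 7.47% were higher and 9.48% lower in line II. In the fit of 8348 genes with a mean of at least 6, 3398 passed for line I, 1571 higher and 1827 lower. Of 25 members there, 3 were higher and 10 lower. For line II 3293 passed, 1316 higher and 1977 lower, with no member higher and 12 lower. CDKN1A, MDM2, TP53INP1, RRM2B, XPC and PPM1D were lower in both lines, a pattern of 5.51% of all genes. The median difference over the members was -0.10 for line I and -0.15 for line II, and it was 0.02 over all genes in both.

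**Figure D3:**
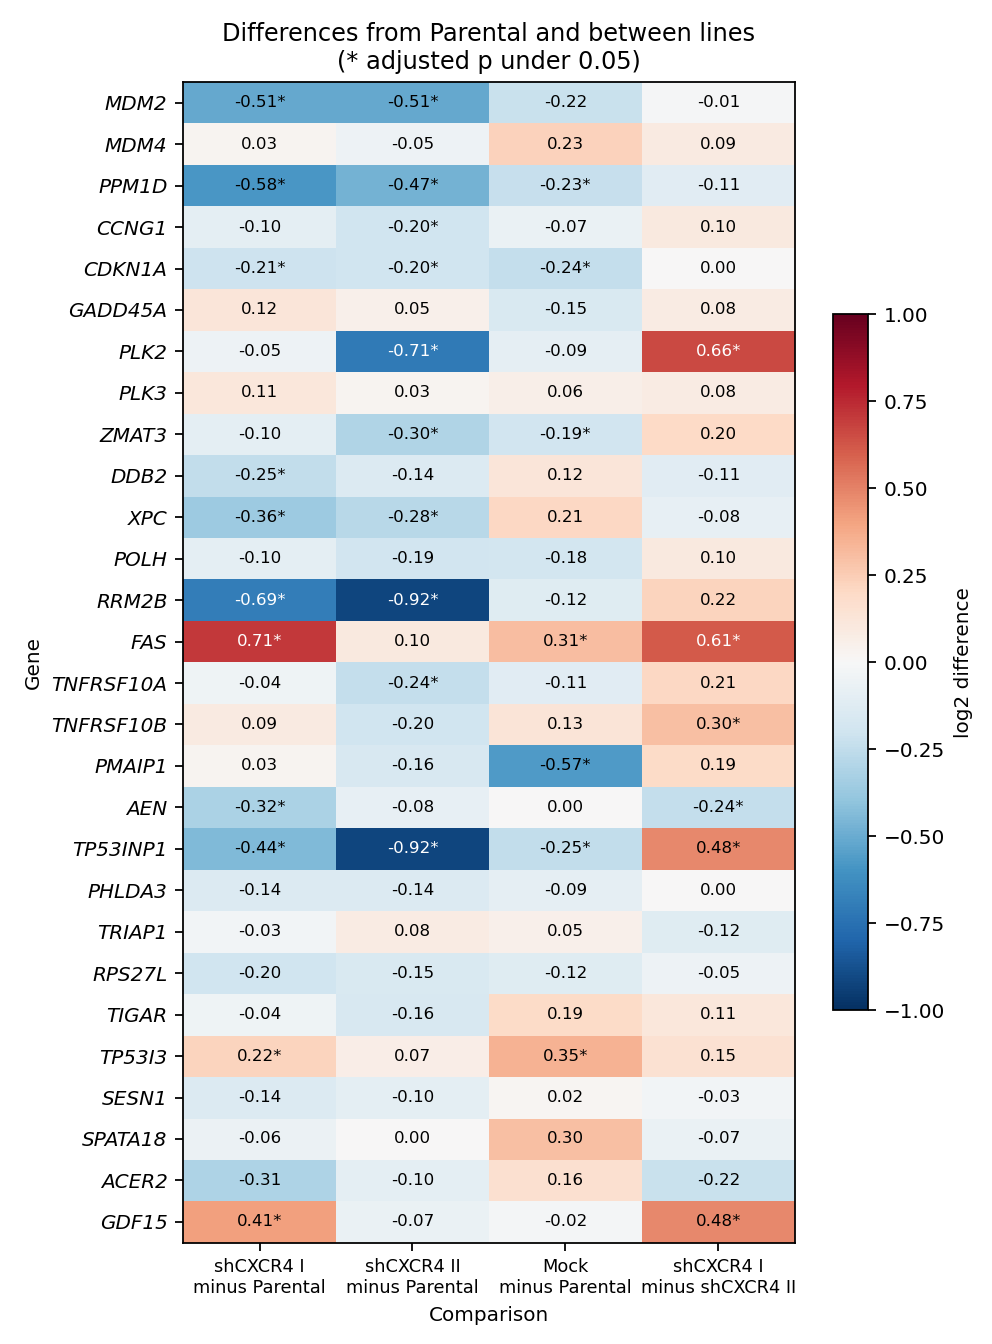
Heat map of log2 differences for the 28 measured genes (rows) in 4 comparisons (columns), each line and Mock against Parental and line I against line II; blue is negative, red is positive, and an asterisk marks an adjusted p under 0.05. No asterisk stands on a positive value for line II minus Parental, and RRM2B and TP53INP1 reach -0.92 there.

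Mock cells, which share transfection and selection with the lines but carry a scrambled RNA, differed from Parental in 7 members. TP53I3 and FAS were higher in Mock, and CDKN1A, PMAIP1, TP53INP1, PPM1D and ZMAT3 were lower, while 15.0% of all genes passed, 9.78% higher and 5.23% lower. Mock and Parental arrays did not overlap for 20 members and for 34.5% of all genes. PMAIP1 had the widest of these differences. After centring each array on its median, 3 members were higher and 3 lower. In the fit of the 8348 genes with a mean of at least 6, 3110 passed, 2272 higher and 838 lower. Of 25 members there, 5 were higher and 5 lower. Because the same Mock arrays enter these values and those of the lines against Mock, the opposite signs of PMAIP1 in the comparisons share their source.

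Between the lines themselves, 6 members passed, while 7.15% of all genes did, and the arrays did not overlap for 13 members and 23.7% of all genes. FAS, PLK2, TP53INP1, GDF15 and TNFRSF10B were higher in line I and AEN was lower. Of all genes, 4.66% were higher and 2.48% lower in line I. TNFRSF10B differed by 0.30 ± 0.07 (SE, limma adjusted p = 0.0171) and AEN by -0.24 ± 0.07 (adjusted p = 0.0473). The AEN call was lost in 13 of the alternative settings, and the TNFRSF10B call without any array of line I or without array 1 of line II (adjusted p from 0.0563 to 0.0599). The TNFRSF10B call was also lost with probe sets averaged and in a fit restricted to the groups compared (adjusted p = 0.314 and 0.066). After centring the arrays, 5 members were higher and none lower. In the fit of the 8348 genes with a mean of at least 6, 1897 passed, 1157 higher and 740 lower in line I. Of 25 members there, 9 were higher and 1 lower. RRM2B, XPC, DDB2, PPM1D and TIGAR, all lower than Mock in both lines, did not pass between them, with differences from -0.11 to 0.22.

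Over all 4 groups, the group mean was highest in Parental for 12 members, in Mock for 10, in line I for 5 and in line II for 1, TRIAP1. It was lowest in line II for 12, in line I for 10, and in Mock and Parental for 3 each. The 3 members lowest in Mock were CDKN1A, PMAIP1 and GADD45A. SESN1, PHLDA3, RPS27L, POLH, PLK3 and TRIAP1 passed in none of the 6 comparisons on the probe sets used, as did 56.3% of all genes. Other probe sets passed for POLH, as given above, and for RPS27L, where 1 gave -0.40 for line I and -0.39 for line II against Parental (adjusted p = 0.0121 and 0.0149).

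Genes that act on p53 were mostly lower where they differed between a line and Mock. Of 25 measured regulators and cofactors of p53, 1 was higher and 9 lower in line I, and 2 were higher and 10 lower in line II, with medians of -0.14 and -0.18. Among all genes, 9.97% were higher and 13.6% lower in line I, and 11.0% were higher and 15.1% lower in line II. Most of these regulators reached a mean of at least 6. Among the 8348 genes at that level, fitted alone, 1152 were higher and 2938 lower in line I. In line II 897 of them were higher and 3051 lower. In Mock against Parental, 7 regulators were higher and 2 lower, beside 9.78% and 5.23% of all genes. Among the genes with a mean of at least 6, 2272 were higher and 838 lower in that comparison. PRKDC, the catalytic subunit of the DNA-dependent protein kinase, differed from Mock by -0.52 ± 0.11 (SE) for line I and -0.54 ± 0.11 for line II (limma adjusted p = 0.00329 and 0.00269). TP53BP1, an adaptor at DNA breaks, differed by -0.45 and -0.41 (adjusted p = 0.00195 and 0.00389). CREBBP, an acetyltransferase that acts with p53, differed by -0.49 for line I and -0.29 for line II (adjusted p = 0.00217 and 0.0358). TRIM24, a ubiquitin ligase for p53, differed by -0.37 for line I and -0.44 for line II (adjusted p = 0.000585 and 0.000162). ATM, a kinase that activates p53 after DNA breaks, differed by -0.15 for line I and -0.43 for line II (adjusted p = 0.245 and 0.00358), and the lines did not pass against each other, at 0.28 (adjusted p = 0.0821). Mock was above Parental for PRKDC and TP53BP1, by 0.37 and 0.30 (adjusted p = 0.0348 and 0.0319), and their differences between the lines and Parental ran from -0.18 to -0.11 without passing. After quantile normalization 1 regulator was higher and 6 lower in line I against Mock, and 1 higher and 5 lower in line II. After centring none was higher and 10 were lower in line I, and none was higher and 14 were lower in line II. For Mock minus Parental the split was 2 higher and 4 lower after quantile normalization.

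A further 21 measured p53 target genes outside the members went in both directions. Against Mock, 4 were higher and 4 lower in line I, and 3 were higher and 6 lower in line II, with medians of 0.07 and -0.03. Beside these counts, 9.97% of all genes were higher and 13.6% lower in line I, and 11.0% higher and 15.1% lower in line II. After quantile normalization the line II split was 4 higher and 3 lower. PERP, a membrane protein of desmosomes and apoptosis, was lower in line II than in Mock, at -0.55 ± 0.07 (SE, limma adjusted p = 0.000117), and than in Parental, at -0.43 (adjusted p = 0.000831). PIDD1, which activates caspase-2, was lower in both lines than in Mock, with differences of -0.49 (line I) and -0.39 (line II) (adjusted p = 0.000569 and 0.00307). The decoy receptors for TRAIL differed in direction, with TNFRSF10C at 0.46 in line I and 0.44 in line II (adjusted p = 0.00481 and 0.00617), and TNFRSF10D at -0.43 and -0.35 (adjusted p = 0.000154 and 0.00097). BTG1, an antiproliferative gene, was lower in Mock than in Parental, at -0.71 ± 0.09 (SE, adjusted p = 0.000147) and higher in line I than in Mock by 0.35 (adjusted p = 0.013).

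Cell cycle genes that p53 is known to repress through p21 were mostly lower in line I than in Mock. Of 15 such genes, all measured, none was higher and 13 were lower in line I against Mock, with a median of -0.47, whereas none was higher and 3 were lower in line II, with a median of -0.12. Of all genes, 13.6% were lower in line I and 15.1% in line II. Most of the 15 reached a mean of at least 6. Among the 8348 genes at that level, fitted alone, 2938 were lower in line I and 3051 in line II. After quantile normalization 12 of the 15 were lower in line I and 1 in line II (medians -0.41 and -0.03), and after centring 14 and 7 (medians -0.54 and -0.20). MYBL2 and FOXM1, transcription factors of dividing cells, differed by -0.60 ± 0.06 and -0.59 ± 0.08 (SE) in line I, with limma adjusted p = 2.15e-05 and 0.000218. AURKA, a mitotic kinase, differed by -0.59 for line I and -0.28 for line II (adjusted p = 1.42e-05 and 0.00406). Between the lines, none of the 15 was higher and 12 were lower in line I. Of all genes, 2.48% were lower there, as were 740 of the 8348 genes fitted alone. The checkpoint kinase gene CHEK1 belongs to this list and to the regulators, and differed from Mock by -0.38 for line I and -0.20 for line II (adjusted p = 0.000964 and 0.042). Whether the members' differences in line I are tied to those of these genes was not tested. Nor was any part of p53 or p21 in them tested.

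**Figure D4:**
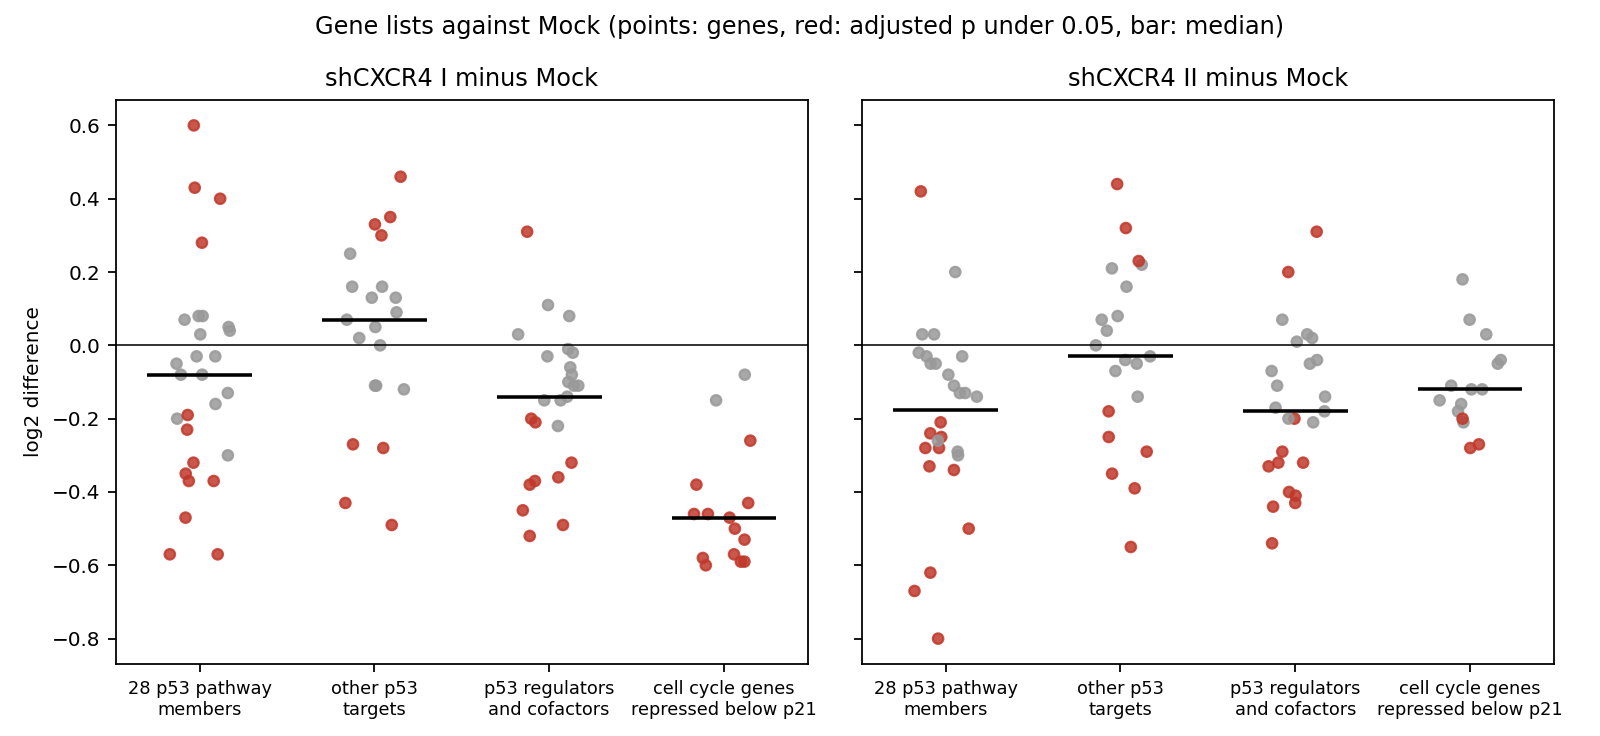
Log2 difference from Mock (vertical axis) of the 28 members and of 3 further lists of p53-related genes, in line I (left) and line II (right); points are genes, red marks an adjusted p under 0.05 and bars are list medians. The 15 cell cycle genes have a median of -0.47 in line I and -0.12 in line II.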

How the data were processed

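RNA of IGROV-1 cells was hybridised to 12 Affymetrix U133 Plus 2.0 arrays, from 6 µg of total RNA each. The authors deposited log2 values per probe set, made with RMA in R 2.6.0 per the submitters' processing notes. No source used here gives the chip definition file or the background step. The values were used without further normalization. The platform annotation gives 1 symbol to 41097 of 54675 probe sets, several to 1801 and none to 11777. The brightest probe set with a single symbol, by its mean over all arrays, stood for each gene. A total of 6 control probe sets with a symbol were left out, and 0 symbols needed updating. Depth does not apply to arrays, whose number limits the precision.

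A group-means model was fitted to all 19775 genes and 12 arrays by lmFit and eBayes of limma 3.58.1, run in R 4.3.3. It had 8 residual degrees of freedom and 5.19 prior ones, with two-sided tests of 6 contrasts and Benjamini-Hochberg adjustment over all genes. The fit was tested on simulated data. Errors after fitted differences are standard errors. Values on every array are given for CDKN1A, MDM2 and MDM4, and for members past the test with a difference of 0.5 or more in size in any contrast. From each further list (regulators and cofactors, other targets, cell cycle genes), up to 4 genes past the test with the largest differences per contrast could be named. TP63, RPL5, GLS2 and 1 further listed gene were not analysed here. The members, roles and lists were chosen with earlier results of these data known.

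Alternatives were averaging the probe sets of each gene, dropping the _x_at and _s_at probe sets, quantile normalization, centring of arrays, a filter at a mean log2 of 6, a trended and robust variance, fits restricted to the groups in a comparison, the replicate number as a block, and leaving out each array in turn. Same-numbered arrays of different groups had residual correlations from -0.109 to 0.148, and differently numbered ones from -0.228 to 0.234, so the numbers were not treated as pairs. Tables and figures were made with Python 3.11.15, pandas 2.3.3, numpy 2.4.6 and matplotlib 3.10.9.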

Additional observations from a re-analysis of the deposited data

Results flagged for a closer look

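For 6 members the difference from Mock was not the same in the lines, by the test of line I minus line II, in which the Mock arrays cancel. PLK2 differed by 0.66, FAS by 0.61, TP53INP1 by 0.48, GDF15 by 0.48 and TNFRSF10B by 0.30, all higher in line I, and AEN differed by -0.24. PLK2 kept its call in every alternative run, with values from 0.63 to 0.71. FAS lost its call without the _x_at and _s_at probe sets, at 0.41 (limma adjusted p = 0.0597), on a probe set with a mean of 4.38. TP53INP1, GDF15 and TNFRSF10B lost theirs when a gene's probe sets were averaged, at 0.16, 0.22 and 0.11 (adjusted p = 0.123, 0.0512 and 0.314). Each line comes from a clone, so clone and hairpin cannot be told apart in these differences.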

How the results depend on the processing

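Of the 59 member differences that passed the test over the 6 comparisons, 32 lost the call under at least 1 alternative, and of 1165 alternative values 1030 kept direction and call, 134 kept only direction and 1 turned. The calls of RRM2B against both controls, of XPC against Mock, and of PLK2 in line II and between the lines held in every alternative. RRM2B in line I minus Mock came closest to the threshold, with a highest limma adjusted p of 0.0498. The calls of PMAIP1 against Mock held in every alternative that tested that gene. PMAIP1 has only _s_at probe sets and was not tested without them. TP53INP1 in line I minus Mock turned to 0.13 (limma adjusted p = 0.122) with probe sets averaged. SPATA18 in line II minus Parental, which had not passed, gave -0.23 (adjusted p = 0.0353) there, and GDF15 in line II minus Mock gave 0.38 (adjusted p = 0.0147) once _x_at and _s_at probe sets were left out. Without these probe sets, 3 members passed for Mock minus Parental and 3 for line I minus line II, of 22 tested. With a mean log2 of at least 6, 10 passed for line I minus line II, and with only the groups compared, 6 passed for line II minus Parental. Leaving out 1 array gave 10 to 14 members for line I minus Mock, 9 to 15 for line II minus Mock, 4 to 8 for Mock minus Parental (4 without Parental array 2 or 3), 9 to 12 and 7 to 12 for line I and line II minus Parental, and 4 to 6 between the lines. With the replicate block the counts were 13, 14, 6, 11, 10 and 5 in the same order, but the numbers do not pair the arrays. Over all genes, 1413 passed for line I minus line II, against 865 without those probe sets, 735 with only the groups compared, and 770, 789, 914 and 879 without arrays 1, 2 or 3 of line I or array 2 of line II. For line II minus Mock 5168 passed, against 3027 with only the groups compared, and for line II minus Parental 3353, against 2215 without Parental array 2. Among all genes past the test, the share that was higher was 42.2% for line I minus Mock and 42.2% for line II minus Mock as deposited, 53.7% and 54.6% after quantile normalization, and 23.8% and 21.3% after centring. The cause was not tested. POLH, SPATA18 and ACER2 lay under a group mean of 6 throughout, where low signal limits what a difference shows. The same limit holds for GDF15, MDM2 and FAS without _x_at and _s_at probe sets. The probe sets then used had means of 3.43, 4.95 and 4.38.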
